A study of Mus musculus with 2 samples.

Results

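CC chemokines are small secreted proteins that guide leukocytes. The 8 genes described here (Ccl2, Ccl3, Ccl4, Ccl5, Ccl6, Ccl7, Ccl9 and Ccl12) were taken by name from the 19537 genes of the deposited matrices. Microglia, the resident macrophages of the brain, were taken from PARK7/DJ-1 knock-out (KO) mice and from wild type (WT) littermates. The knock-out mice belonged to a Park7 gene-trap line backcrossed to C57BL/6NCrl, and DJ-1, the product of Park7, is a redox-sensitive protein whose loss causes familial Parkinson's disease. All mice were 3 to 4 months old and received 1 intraperitoneal injection of lipopolysaccharide (LPS, 4 µg per g of body weight), a bacterial cell wall component that triggers systemic inflammation, 24 h before the brain was taken. Living CD11b+CD45int cells were sorted by flow cytometry and captured with Drop-seq, where each droplet holds a bead whose barcoded oligonucleotides bind the 3' ends of transcripts. Each genotype gave 1 library that pooled 2 mice, 1 female and 1 male, so the groups KO LPS and WT LPS have 1 sample each and no untreated library was used here. Genotype and library cannot be told apart, no test between the groups was made, and every interval below is a 95% interval for counting error only.

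The receptors of these proteins sit on monocytes, lymphocytes and microglia themselves, and each ligand reaches only some of them. Ccl2, Ccl7 and Ccl12 act on Ccr2 and draw monocytes from the blood, Ccl3, Ccl4 and Ccl5 attract macrophages and T cells, Ccl3 and Ccl5 in part through Ccr1, and Ccl6 and Ccl9 are rodent ligands of Ccr1. In macrophages and microglia, LPS is known to induce most of them through NF-kB and interferon signalling, and Ccl6 and Ccl9 are known to be made by resting myeloid cells too.

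Barcodes with at least 500 unique molecular identifiers (UMIs, each marking 1 captured transcript) and at least 100 genes were counted as cells, which left 320 in KO LPS and 1427 in WT LPS. They held 381305 and 1989011 UMIs (55.7% and 64.9% of all UMIs), with a median of 964 and 1065 UMIs per cell, and shared 0 barcodes. Park7, the targeted gene, was counted 323 times in WT LPS and once in KO LPS (1 UMI), or 0.0161 of the WT LPS level at equal depth (0.000408 to 0.0906). The 15 microglia markers were all present in both libraries, with a summed level of 38667 CPM (counts per 1e6 UMIs of the cells) in KO LPS against 27602 in WT LPS. Of the 15, 7 were at least 2-fold higher in KO LPS and 0 at least 2-fold lower. Over all genes with at least 20 UMIs in the cells of both libraries combined, these shares were 13.5% and 15.3%. Among the other 8 markers, which lay within 2-fold, C1qb stood at 3881 CPM in KO LPS and 5376 in WT LPS. C1qa, also one of them, stood at 2840 and 5298 CPM in the same order. KO LPS also held 2135 CPM of 6 choroid plexus genes against 15.1 CPM in WT LPS, and the part of this in the results below was not tested.

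All 8 genes lie on mouse chromosome 11, in 2 runs of neighbouring protein-coding genes. Ccl2, Ccl7 and Ccl12 lie in 1 run, with only Ccl11 between Ccl7 and Ccl12, and Ccl5, Ccl9, Ccl6, Ccl3 and Ccl4 follow each other in the other. The windows of 250 bases before the transcription start are shown for 3 members with different patterns, namely Ccl12, which had the most UMIs in WT LPS, Ccl6, the only member higher in KO LPS, and Ccl9, whose levels were close. They are taken from RefSeq (GRCm38.p6), read on the coding strand. Capitals mark matches, on either strand, of an NF-kB consensus, of the AP-1 letters TGANTCA and of the TATA letters TATAAA.
Ccl12, chr11:82101595-82101844, plus strand: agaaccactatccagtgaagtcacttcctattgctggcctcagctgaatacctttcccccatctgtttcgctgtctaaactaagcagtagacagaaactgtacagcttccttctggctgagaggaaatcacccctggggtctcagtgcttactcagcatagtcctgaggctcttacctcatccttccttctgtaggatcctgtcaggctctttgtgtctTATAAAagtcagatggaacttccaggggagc
Ccl6, chr11:83593088-83593337, minus strand: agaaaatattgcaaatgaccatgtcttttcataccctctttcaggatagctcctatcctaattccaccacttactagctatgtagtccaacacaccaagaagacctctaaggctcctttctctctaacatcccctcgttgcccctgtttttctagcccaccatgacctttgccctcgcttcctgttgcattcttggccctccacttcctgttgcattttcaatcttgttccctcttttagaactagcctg
Ccl9, chr11:83578637-83578886, minus strand: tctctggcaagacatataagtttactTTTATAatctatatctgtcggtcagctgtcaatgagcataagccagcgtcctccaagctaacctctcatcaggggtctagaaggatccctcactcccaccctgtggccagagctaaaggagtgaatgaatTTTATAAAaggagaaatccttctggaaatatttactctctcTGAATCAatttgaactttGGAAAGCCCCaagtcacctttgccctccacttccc

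A TATA match lay 31 to 26 bases before the start of Ccl12. The Ccl9 window held an NF-kB match at 35 to 26 bases, an AP-1 match at 53 to 47 bases and 3 TATA matches before the start, of which 2 overlapped. The window of Ccl6 held none of these letters, and neither did that of Ccl3 (chr11:83649379-83649628, minus strand). Among all 32851 promoter windows of this length, 7.25% held the NF-kB consensus, 6.75% the AP-1 letters and 12.4% the TATA letters. Ccl2, Ccl4, Ccl5 and Ccl7 had no entry in the table. Drop-seq captures 3' ends, so the last 400 bases of the longest protein-coding GENCODE transcript of each member were also compared. The longest exact run shared by any of the 28 pairs of members was 12 bases. Whether these transcript ends are the ones captured here was not tested.

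The 8 members split into 6 that were lower in KO LPS, 1 that was close between the libraries and 1 that was higher. Summed, they reached 6423 UMIs or 3229 CPM (3151 to 3309) in WT LPS against 129 UMIs or 338 CPM (282 to 402) in KO LPS, and the ratio of the KO LPS to the WT LPS level (all ratios between libraries are given this way) was 0.105 (0.0873 to 0.125). Ccl12 carried 65.0% (63.8 to 66.1) of the WT LPS sum, and without it the ratio was 0.285 (0.236 to 0.342). A level at least 2-fold lower in KO LPS was reached by 6 of 8 members (5 of 8 under 8 of 12 alternative settings, 7 of them through Ccl4), and by 15.3% of the 9085 genes that had 20 UMIs or more in the cells of both libraries combined. At least 2-fold higher was 1 of 8 members and 13.5% of those genes. The median log2 ratio was -3.44 over the members and 0.03 over all these genes, where a prior count of 0.5 was added to each count. With the 2 members that had 0 UMIs in KO LPS set to a floor of 3 counts, the median of the members was -2.15.

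**Figure D1:**
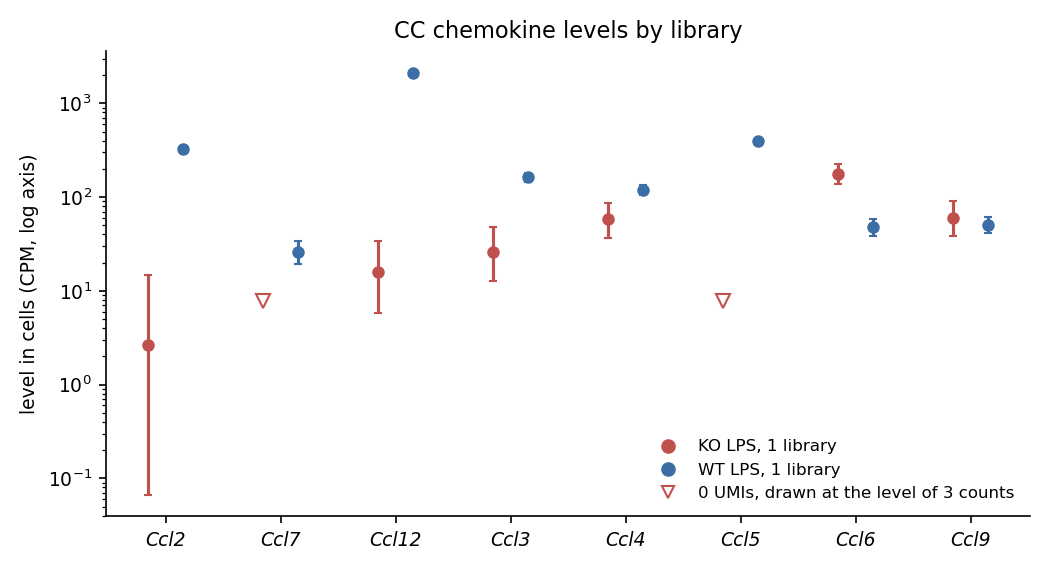
Level of each CC chemokine in the cells of each library, in CPM on a log axis, with exact 95% Poisson intervals, 1 library per genotype. Open triangles stand for 0 UMIs and are drawn at the level of 3 counts. The first 6 genes are lower in KO LPS, Ccl6 is higher and the intervals of Ccl9 overlap.

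As group sums, the ligands of Ccr2 showed a wider gap than the other members. Together, Ccl2, Ccl7 and Ccl12 accounted for 4872 UMIs (2449 CPM) of WT LPS and for 7 UMIs (18.4 CPM) of KO LPS. The 4872 UMIs of WT LPS would give 934 UMIs at the depth of the KO LPS cells. Ccl12, a monocyte attractant of mice that is close to Ccl2, gave 4172 UMIs over 675 WT LPS cells and 6 UMIs over 5 KO LPS cells. Its level was 2098 CPM (2034 to 2162) in WT LPS against 15.7 CPM (5.77 to 34.2) in KO LPS. The ratio of 0.00750 (0.00275 to 0.0163) was lower than that of all but 6 of the 9085 genes. In WT LPS it ranked 25 among the 15014 genes with a UMI, against 7246 among 12617 genes in KO LPS.

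Ccl2, the best known Ccr2 ligand, gave 648 UMIs over 317 WT LPS cells and a single UMI in KO LPS. Its level was 326 CPM (301 to 352) against 2.62 CPM (0.0664 to 14.6) in KO LPS, and the ratio was 0.00805 (0.000203 to 0.0450). Ccl7, a further Ccr2 ligand, was the least abundant member in WT LPS, with 52 UMIs in 32 cells and 26.1 CPM (19.5 to 34.3). It was not among the genes listed for KO LPS and had 0 UMIs there. At least 3.32-fold lower is the bound that 3 counts in KO LPS set. Of the 3 genes, Ccl7 therefore has the weakest limit, since 9.97 UMIs would be the WT LPS level at the depth of KO LPS.

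Of Ccl3, Ccl4 and Ccl5, Ccl5 differed most and Ccl4 least. Ccl5 (RANTES), which attracts T cells and monocytes, gave 797 UMIs over 251 WT LPS cells, a level of 401 CPM (373 to 430), and 0 UMIs in the 320 KO LPS cells. It was at least 50.9-fold lower in KO LPS against the floor of 3 counts, and its fitted log2 ratio, which depends on the prior count, was the lowest of the members, with 2 of the 9085 genes below it. T or NK lymphocytes also make Ccl5. Of their 12 markers only 4 were in the matrices, with 2 UMIs in WT LPS against 0, Trac, Klrb1c and Gzmb being at 0 in both. The part of these cells in the Ccl5 counts was not tested. A count of 0 in 320 cells allows a share of cells with a Ccl5 UMI of up to 1.15% (exact Clopper-Pearson). In WT LPS the share was 17.6% (15.6 to 19.7), but depth was not equal in the cells of the libraries. The WT LPS share at equal depth is given below beside that of free RNA.

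Ccl3 and Ccl4, the macrophage inflammatory proteins, were few in KO LPS and sat mostly in 1 cell. Ccl3 gave 322 UMIs over 130 WT LPS cells, or 162 CPM (145 to 181), and 10 UMIs over 3 KO LPS cells, or 26.2 CPM (12.6 to 48.2). Its ratio was 0.162 (0.0769 to 0.302). Ccl4 gave 236 UMIs over 89 WT LPS cells, or 119 CPM (104 to 135), and 22 UMIs over 5 KO LPS cells, or 57.7 CPM (36.2 to 87.4), and its ratio was 0.486 (0.299 to 0.754), just past the 2-fold line with an interval on both sides of it. Under 7 of 12 alternative settings Ccl4 fell short of this line, with log2 ratios of -0.97 to -0.77. In KO LPS, a single cell with 1036 UMIs held 7 of the 10 Ccl3 UMIs and 16 of the 22 Ccl4 UMIs. It held UMIs of 9 of the 15 microglia markers, among them 7 of Cx3cr1, and none of the other members. Without this cell, the ratio was 0.0487 (0.0100 to 0.144) for Ccl3 and 0.133 (0.0483 to 0.294) for Ccl4. In WT LPS, the cell with the most UMIs of these genes held 47 of Ccl3, 29 of Ccl4 and 30 of Ccl5 among 2204 UMIs, and 14.6% of all Ccl3 UMIs of that library.

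The remaining Ccr1 ligands went the other way or did not differ beyond counting error. Ccl6, known to attract macrophages, gave 67 UMIs over 53 KO LPS cells and 95 UMIs over 79 WT LPS cells. Its level was 176 CPM (136 to 223) in KO LPS against 47.8 CPM (38.6 to 58.4) in WT LPS. The ratio was 3.68 (2.65 to 5.08), higher than that of 97.2% of the 9085 genes. Ccl9 gave 23 UMIs over 22 KO LPS cells and 101 UMIs over 90 WT LPS cells, which made 60.3 CPM (38.2 to 90.5) and 50.8 CPM (41.4 to 61.7). Its ratio was 1.19 (0.721 to 1.88), an interval that holds both no difference and a 1.88-fold higher level.

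**Figure D2:**
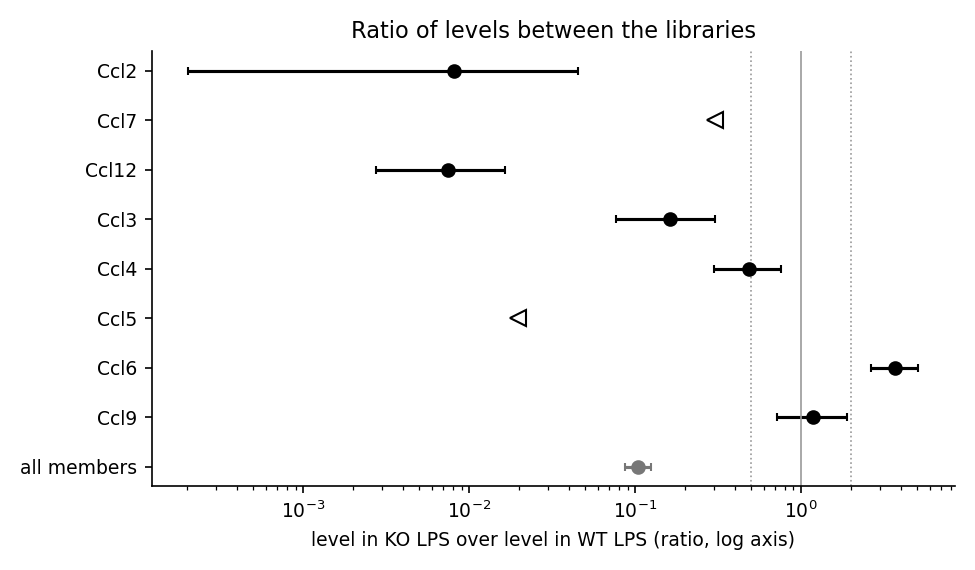
Ratio of the level in KO LPS to that in WT LPS for each CC chemokine and for their sum, on a log axis, with exact 95% intervals for counting error. Open triangles are upper bounds for genes with 0 UMIs in KO LPS, and dotted lines mark 2-fold differences. Ccl12 and Ccl2 lie near 0.00750 and 0.00805, Ccl6 at 3.68.

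The make-up of the chemokine transcripts was therefore not the same in the libraries. UMIs count 3' ends, so counts of different genes can be set side by side without a correction for length, although capture may differ between genes. In WT LPS the order of UMIs was Ccl12, Ccl5, Ccl2, Ccl3, Ccl4, Ccl9, Ccl6 and Ccl7. Ccl12 exceeded Ccl5 5.23-fold (4.85 to 5.65), and Ccl9 and Ccl6 were the only neighbours whose interval held 1 (Ccl6 over Ccl9, 0.941, 0.703 to 1.26). In KO LPS, Ccl6 led with 51.9% (43.0 to 60.8) of the 129 UMIs, followed by Ccl9 with 17.8% and Ccl4 with 17.1%. Ccl6 exceeded Ccl9 2.91-fold (1.79 to 4.90) there, while the Ccl4 to Ccl9 ratio was 0.957 (0.508 to 1.80). Without the cell that held 16 of the Ccl4 UMIs, Ccl4 made up 5.66% (2.11 to 11.9) of 106 UMIs, its ratio to Ccl9 was 0.261 (0.0869 to 0.659) and Ccl6 made up 63.2%. The Ccr2 ligands made up 5.43% (2.21 to 10.9) of the UMIs in KO LPS and 75.9% (74.8 to 76.9) in WT LPS.

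To compare shares of cells at equal depth, every cell was thinned to 500 UMIs, which left out none of the cells. As free RNA in the droplets also gives UMIs, each share is set beside the share that droplets of 500 UMIs would reach if drawn only from the ambient profile, that is from barcodes with at most 100 UMIs. Any member was present in 14.1% (10.4 to 18.4) of KO LPS cells, where ambient droplets would reach 10.7%, and in 50.9% (48.2 to 53.5) of WT LPS cells, where ambient droplets would reach 33.0%. Before thinning, the shares were 24.7% and 65.8%. At least 3 UMIs of the members were present in 0.625% (0.0758 to 2.24) of KO LPS cells and in 17.9% (15.9 to 19.96) of WT LPS cells, with ambient values of 0.0221% and 0.793%.

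Single genes differed in how far they stood above this background. At 500 UMIs, Ccl12 was present in 34.4% (31.9 to 36.9) of WT LPS cells against 18.4% of ambient droplets, and in 1.25% (0.342 to 3.17) of KO LPS cells against 1.99%. Ccl2 was present in 11.6% (9.95 to 13.3) of WT LPS cells against 3.58%, and in 0.313% (0.00791 to 1.73) of KO LPS cells against 0.251%. The KO LPS shares of both were thus at the level of free RNA. Ccl5 was present in 11.4% (9.75 to 13.1) of WT LPS cells against 9.06% of ambient droplets, but at 3 or more UMIs it was present in 2.03% (1.37 to 2.91) against 0.0132%.

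Ccl3 and Ccl4 were present in 3.71% (2.79 to 4.83) and 3.15% (2.31 to 4.20) of WT LPS cells against 1.88% and 2.35% of ambient droplets, so that the interval of Ccl4 held its background. Ccl6 was present in 9.06% (6.15 to 12.8) of KO LPS cells against 5.39%, and in 2.38% (1.66 to 3.31) of WT LPS cells against 0.789%. Ccl9 was present in 2.50% (1.09 to 4.87) of KO LPS cells against 1.25% of ambient droplets, and in 2.38% (1.66 to 3.31) of WT LPS cells against 1.10%. The level of a gene in cells can also be divided by its level in ambient barcodes. In WT LPS this ratio was 5.17 (4.34 to 6.22) for Ccl12, 4.47 (2.95 to 7.11) for Ccl2 and 2.11 (1.62 to 2.79) for Ccl5, and 4.03 (3.55 to 4.59) for the sum. In KO LPS the sum had a ratio of 1.49 (1.06 to 2.15), with 226 CPM in ambient barcodes. The ratio of Ccl6 was 1.59 (0.968 to 2.70) in KO LPS, with 111 CPM in ambient barcodes, an interval that holds 1, and 3.02 (1.25 to 9.50) in WT LPS.

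**Figure D3:**
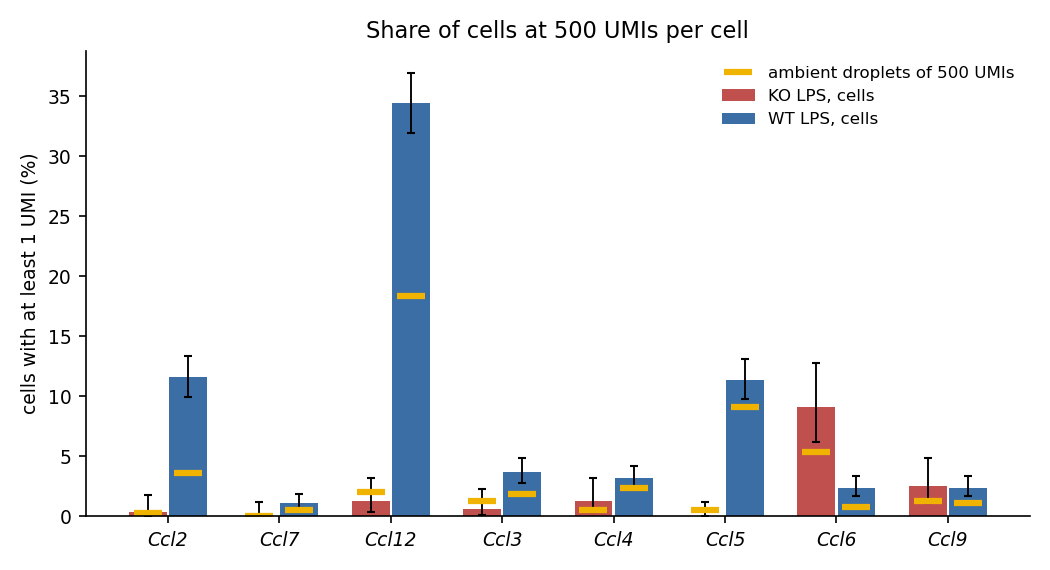
Share of cells with at least 1 UMI of each CC chemokine after every cell was thinned to 500 UMIs, in percent, with exact 95% binomial intervals, for 320 KO LPS and 1427 WT LPS cells. Yellow lines give the share in droplets drawn only from the ambient profile of the same library. Ccl12 and Ccl2 stand far above the line in WT LPS, Ccl5 only a little.

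Within WT LPS, expression was uneven between cells. Ccl12 had 10 or more UMIs in 127 cells, and 85 cells (5.96%) held 50% of its UMIs, while 752 cells had none. For Ccl3, 11 cells (0.771%) held 50% of the UMIs, and for Ccl5 43 cells (3.01%). The Fano factor, the variance over the mean of UMIs per cell at 500 UMIs, which is near 1 when molecules fall on cells at random, was 5.64 for Ccl3, 5.22 for Ccl12, 2.65 for Ccl4, 2.26 for Ccl5 and 1.49 for Ccl2. For Ccl3, 1 thinned cell held 17 of 104 UMIs, and without it the factor was 3.44, below the 4.82 of Ccl12 without its own top cell. It was 0.976 for both Ccl6 and Ccl9, which never exceeded 1 UMI per thinned WT LPS cell. The level in WT LPS also differed with the depth of the cells, from 2491 CPM (2351 to 2636) for the sum in cells of 500 to 999 UMIs to 3795 CPM (3659 to 3936) in cells of 2000 UMIs or more. Cells of 1000 to 1999 UMIs lay between, at 3122 CPM (2996 to 3252). In KO LPS the 3 bins, from shallow to deep, gave 309 CPM (220 to 422), 418 CPM (324 to 531) and 242 CPM (154 to 364), with no steady order, and 23 of the 67 UMIs of the middle bin came from the single cell rich in Ccl3 and Ccl4.

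Cells with several members were more common in WT LPS, where each of Ccl2, Ccl7, Ccl12, Ccl3, Ccl4 and Ccl5 was also present in a larger share of cells. At 500 UMIs, 3 cells of KO LPS (0.938%, 0.194 to 2.72) and 221 cells of WT LPS (15.5%, 13.6 to 17.5) held at least 2 members. If the members fell on cells independently, at the shares measured for each, 13.5% of WT LPS cells and 0.640% of KO LPS cells would hold 2 or more, and ambient droplets of WT LPS would reach 4.30%. The KO LPS share was thus not below its own independent value. At least 4 members were present in 10 WT LPS cells, where independence gives 1.54 cells. Exactly 1 member was present in 505 WT LPS cells, where independence gives 590 cells.

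**Figure D4:**
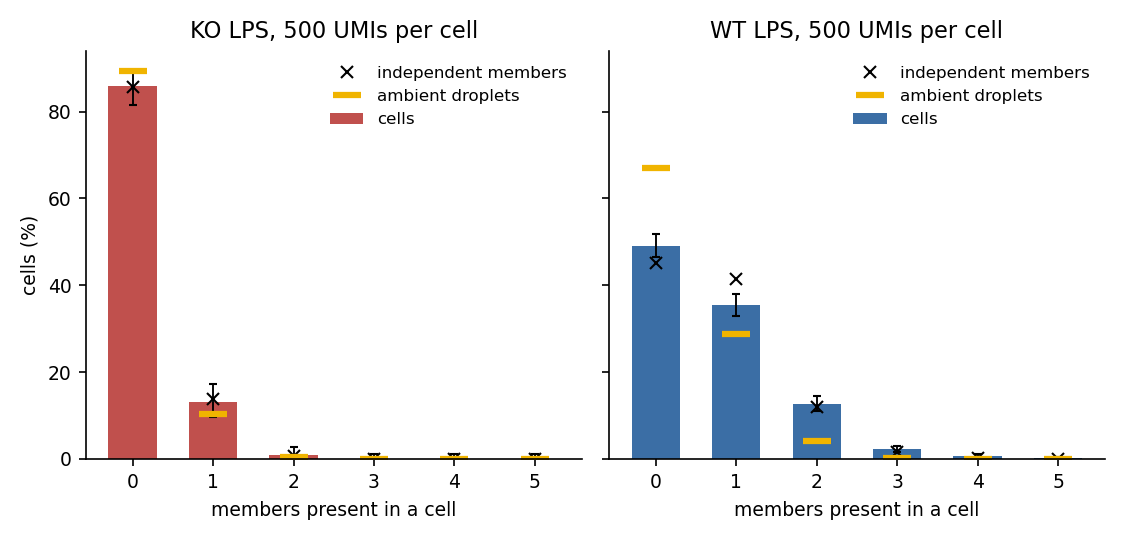
Number of the 8 CC chemokines present per cell at 500 UMIs, as percent of the cells of each library, with exact 95% binomial intervals. Crosses give the shares if members fell on cells independently, yellow lines those of ambient droplets. In WT LPS more cells than the crosses show hold 3 or more members, while 85.9% of KO LPS cells hold none.

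Pairs were compared in the same way, over the 23 of 28 pairs for which independence predicts at least 1 WT LPS cell. Of these, 19 were found together more often than predicted, and for 4 the interval lay above 1. Ccl3 and Ccl4 were present together in 12 cells, 7.18 times (3.71 to 12.5) the number predicted. Ccl2 and Ccl7 shared 8 cells, 4.32 times (1.87 to 8.52), out of 16 cells with Ccl7. Ccl2 and Ccl12 shared 97 cells, 1.71 times (1.39 to 2.08), or 58.8% of the cells with Ccl2. Ccl2 and Ccl3 shared 13 cells, 2.12 times (1.13 to 3.63).

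Ccl5 did not pair with the others beyond counting error. It shared 57 cells with Ccl12, 1.02 times (0.775 to 1.32) the number predicted, and 18 cells with Ccl2, 0.961 times (0.570 to 1.52). Depth was equal in all cells here, but cells differ in their content of free RNA, whose part in these ratios was not tested. In KO LPS, 3 cells with 2 members are too few to compare pairs.

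**Figure D5:**
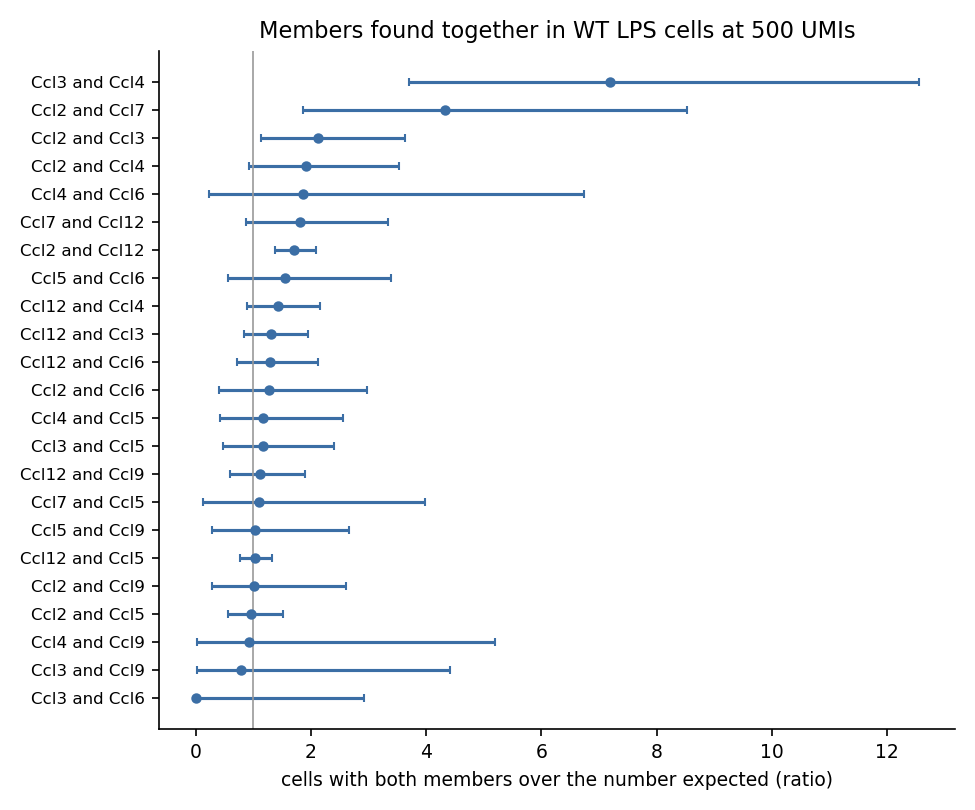
WT LPS cells at 500 UMIs that hold both members of a pair, divided by the number expected if the members fell on cells independently, for the 23 pairs expecting at least 1 cell, with 95% Poisson intervals. The grey line marks 1. Ccl3 with Ccl4 (7.18) and Ccl2 with Ccl7 (4.32) lie farthest to the right.

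The cells could also be split by sex-linked transcripts, since each library held 1 female and 1 male mouse. In cells with Xist and no Y-linked UMI (200 of KO LPS and 565 of WT LPS), the summed ratio was 0.0943 (0.0759 to 0.116) and that of Ccl6 4.76 (2.94 to 7.82). In cells with a Y-linked and no Xist UMI, of which KO LPS had only 12 against 195 in WT LPS, the summed ratio was 0.152 (0.0608 to 0.313) and that of Ccl6 6.72 (2.20 to 17.5). Ccl12 had 1996 UMIs in WT LPS against 3 in the first set, and 597 against 0 in the second. The direction of the sum, of Ccl12 and of Ccl6 was thus the same in both sets.

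The other genes of the pathway were taken as lists. Of 11 CC receptors, 10 were in the matrices. Ccr1 stood at 55.3 CPM in WT LPS against 23.6 CPM in KO LPS, with a ratio of 0.427 (0.190 to 0.840). Ccr2, which marks monocytes and is the target of Ccl2, Ccl7 and Ccl12, had few UMIs, 8 in the KO LPS cells (21.0 CPM) and 15 in the WT LPS cells (7.54 CPM), with a ratio of 2.78 (1.02 to 6.99). Of 13 further CC ligands, 8 were in the matrices, with 21 UMIs in all in WT LPS, 7 in KO LPS and none with enough UMIs to compare. Of 5 atypical receptors, which bind chemokines without signalling through G proteins, 3 were in the matrices, and only Ccrl2 had at least 20 UMIs over both libraries (20 in WT LPS against 2).

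Of 22 genes that carry the signal of chemokine receptors, 20 had enough UMIs, 0 were at least 2-fold lower in KO LPS (15.3% of all genes compared) and 5 were at least 2-fold higher (13.5% of all genes), with a median log2 ratio of 0.58. The 5 were Rgs2, Rgs10, Elmo1, Arrb1 and Adrbk2, named after their values were seen. Rgs2, which shortens G protein signals, stood at 1222 CPM in KO LPS against 372 in WT LPS (KO LPS comes first in pairs of levels below that name no library), a ratio of 3.29 (2.92 to 3.70). Arrb2, which takes receptors out of the membrane, stood at 464 and 492 CPM, and Gnai2, the G protein subunit that chemokine receptors use, at 472 and 356 CPM.

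Of 19 genes known to control chemokine transcripts, 7 were at least 2-fold lower in KO LPS (15.3% of all genes) and 0 at least 2-fold higher (13.5%). The other 12 lay within 2-fold, and the median log2 ratio was -0.01. Nfkbia, an NF-kB inhibitor that NF-kB itself induces, stood at 220 and 1164 CPM, a ratio of 0.189 (0.150 to 0.235). Nfkb2, Relb, Nfkbiz, Zc3h12a and Irf7, named after their values were seen, were also among the lower ones. The other NF-kB subunits of the list, also named afterwards, had intervals that held 1. Their ratios were 1.07 (0.754 to 1.48) for Nfkb1, 1.19 (0.883 to 1.59) for Rel and 0.978 (0.422 to 2.02) for Rela. Jun, a part of AP-1, stood at 789 and 726 CPM, a ratio of 1.09 (0.956 to 1.23). Zfp36l1, which binds AU-rich transcripts, stood at 535 and 349 CPM, a ratio of 1.53 (1.31 to 1.79).

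Other cells can also make these chemokines, so their markers are given beside the members. Of 9 monocyte markers, 8 were in the matrices, whose sum was 140 CPM in WT LPS against 31.5 in KO LPS. Of the 4 with enough UMIs, 3 were at least 2-fold lower in KO LPS (15.3% of all genes) and 1, Ccr2, was at least 2-fold higher (13.5%). In WT LPS and KO LPS, Ms4a4c had 124 and 1 UMIs, Hp 66 and 0, and Fn1 57 and 1, while Ly6c2 had 0 in both. Of 9 neutrophil markers, 8 were in the matrices and summed to 260 CPM in WT LPS against 430, of which all 164 UMIs of KO LPS were Csf3r. S100a8 and S100a9 had 81 and 45 UMIs in WT LPS and none in KO LPS. The 8 markers of border macrophages summed to 62.9 and 46.3 CPM, with 7 of them at 0 in KO LPS and only Folr2 at 0 in WT LPS. The part of these cells in the WT LPS levels of the members was not tested. The CD11b+CD45int gate is set to leave out the remaining cell types. Sums of 372 and 177 CPM came from astrocyte markers, 102 and 21.6 CPM from endothelial markers, 102 and 74.4 CPM from oligodendrocyte markers, 60.3 and 68.4 CPM from neuron markers and 99.7 and 58.3 CPM from B lymphocyte markers.

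The genes whose UMIs were most like those of the members across the 1427 thinned WT LPS cells were found by Pearson's r of log2(1 + UMIs), among 2812 genes present in at least 50 of these cells. All values were low, as sparse counts of 1 library are, and they are given as a description. For the summed members they were Fth1 (0.23), Gpr84 (0.22) and Tmsb4x (0.20). Ccl12 was closest to Gpr84 (0.23), Hsp90ab1 (0.19) and Tmsb4x (0.17), and Ccl2 to Niacr1 (0.13), Aif1 (0.13) and B2m (0.12). Ccl3 was closest to Sod2 (0.18), Plek (0.14) and Marco (0.14), and Ccl4 to Il1b (0.24), Plek (0.13) and Cxcl16 (0.13). Ccl5 was closest to Fth1 (0.22), Marco (0.20) and Saa3 (0.16). Between members, the highest values were those of Ccl3 with Ccl4 (0.43) and Ccl2 with Ccl12 (0.25).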

How the data were processed

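CD11b+CD45int cells of 1 KO LPS and 1 WT LPS library were analysed. The authors deposited 1 matrix of raw counts per library, that is UMIs per gene and barcode, with 9999 barcodes each and no filter on cells. The matrices held 684738 and 3063795 UMIs. Values missing for a gene were read as 0. The submitters' processing notes list bcl2fastq 2.0, STAR and the builds mm9 and mm10 with no role. The counting program, the annotation and any use of strand are not given in the sources used here, so counts of overlapping genes are uncertain. Each matrix belongs to 1 labelled sample, so no column was left without one.

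Cells had at least 500 UMIs and 100 genes. Doublets were left in, and the barcode with most UMIs held 27757 UMIs in WT LPS. UMIs were summed over cells and divided by the UMIs of those cells (CPM). Levels have exact Poisson, ratios exact conditional binomial and shares exact Clopper-Pearson intervals (95%). Log2 ratios used a prior count of 0.5, and a gene with 0 UMIs was given a floor of 3 counts in that library, which is not a 95% limit. The background was the genes that reached 20 UMIs in the cells of both libraries combined. Calculations used Python 3.11.15, numpy 2.4.6, scipy 1.17.1 and pandas 2.3.3, and were tested on simulated data. UMIs are molecules, but each library pools its mice, so intervals leave out the spread between mice. Those of levels and ratios also treat UMIs as independent, so they leave out the uneven spread over cells and are too narrow for genes concentrated in few cells. Only cells with Xist or Y-linked UMIs, not both, could be assigned to the female or the male mouse.

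The 8 members and the gene lists were chosen with earlier results of these data known. Genes named are the members, Park7, the 3 genes of most UMIs in each list of receptors, signalling, transcript control and microglia, and the 3 genes closest to each member with at least 200 WT LPS UMIs. Other marker genes named (Ccrl2, Ly6c2, Ms4a4c, Hp, Fn1, Csf3r, S100a8, S100a9, Folr2, Trac, Klrb1c, Gzmb and Cx3cr1) were chosen after their values were seen. Some genes that this rule picks are not reported here. Alternatives changed the cell threshold, the scaling, the prior count, ambient subtraction, thinning and the cells kept. No p-value was computed, because each group is 1 library.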

Additional observations from a re-analysis of the deposited data

Results flagged for a closer look

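Ccl6 was also above the WT LPS level outside the cells. In the barcodes of KO LPS not counted as cells it stood at 108.8 CPM (74.9 to 152.7), against 25.1 CPM (16.6 to 36.6) in those of WT LPS, and it was looked at because these barcodes are not part of the comparison of levels between cells. Those with at most 100 UMIs give the ambient profile. These barcodes hold free RNA and shallow cells, which were not separated.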

How the results depend on the processing

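Of the 13 alternatives for the summed log2 ratio of -3.25, 9 stayed within its 95% counting interval of -3.52 to -3.00, and the direction was the same in all 13. It was -2.93 over all barcodes, -3.67 when the 10 cells richest in member UMIs were left out of each library, -2.62 in cells with a Y-linked and no Xist UMI (12 cells in KO LPS) and -1.81 without Ccl12. The last was chosen after seeing the data, as was leaving out the cell of each library with most Ccl3 and Ccl4 UMIs, which gave -3.50. The Fano factors and the make-up without a top cell were also chosen after seeing the data. The median log2 ratio of the members stayed between -4.46 and -2.75 in 12 alternatives. Scaling by the median ratio of all genes shifted every log2 ratio by 0.03. The share of cells with a member differed by -36.8 percentage points (KO LPS minus WT LPS), by -22.7 in the Y-linked cells (interval -40.2 to 6.37), -47.2 when thinned to 1000 UMIs, -41.1 unthinned and -17.2 for 3 or more UMIs. The share with 2 or more members differed by -14.5 points, by -30.0 when thinned to 1000 UMIs and by -29.4 unthinned, where more UMIs per cell find more members. The cell over ambient ratio in WT LPS was 3.57 to 4.32. Ccl3 and Ccl4 moved to -3.91 and -2.61 without 1 cell of each library, and Ccl9 ranged from 0.02 to 0.95. Ccl12 (-6.94) moved to -5.91 over all barcodes and -5.81 in the Y-linked cells. Ccl2 (-6.37) moved to -4.89 at 300 UMIs, -4.50 over all barcodes and -2.88 in the Y-linked cells. Ccl5 (-8.26), at 0 UMIs in the KO LPS cells, moved to -5.93 over all barcodes, -6.26 with a prior count of 2 and -3.79 in the Y-linked cells. Ccl4 lay within 2-fold in 7 of 12 alternatives (-0.97 to -0.77) and Ccl7 in the Y-linked cells (-0.34), so that 5 in place of 6 members were at least 2-fold lower in 8 of 12. No log2 ratio of a member changed sign, but without the prior count Ccl9 stood at 0.985 of the WT LPS level in cells with Xist and no Y-linked UMI, against 1.19 in all cells. The depth of KO LPS limits Ccl7 most. No paired analysis was possible because each group has 1 library and the result comes from no test.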
